A study of Rattus norvegicus with 12 samples.

Results

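The constitutive proteasome genes of rat kidney were taken as all genes whose symbol starts with Psma, Psmb, Psmc, Psmd, Psme, Psmf or Psmg, without the immunoproteasome genes Psmb8, Psmb9 and Psmb10. These were 42 of the 12722 genes that the array probes name by 1 symbol. Of the 42, 40 encode subunits, regulators or assembly factors of the proteasome, and 2 (Psmc3ip and Psme3ip1) match by their symbol alone. The 42 genes had 50 probes, with 1 probe for 35 genes, 2 for 6 genes and 3 for Psmd11, and each gene was represented by the probe with the highest mean intensity over the 12 arrays. The 20S assembly chaperone Psmg4 was above background on 0 arrays and was not tested, which left 41 genes, of which each had 11 or 12 arrays above background. Kidneys of male Fischer 344 rats were compared in 3 groups of 4 arrays, 1-colour CodeLink oligonucleotide arrays. Rats of the aged CR group were 24 months old and calorie-restricted, with 10% less food from 10 weeks of age, 25% less from 15 weeks and 40% less from 4 months. Rats of the aged AL group were also 24 months old and ate freely (ad libitum). Rats of the young group were 4 months old and ate freely. All came from 1 colony, and the labels give no treatment of the kidneys, which were removed under anaesthesia and frozen.

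The proteasome is the protease that degrades most ubiquitin-tagged proteins. Its 20S core is a barrel of outer alpha rings, which gate the entrance, and inner beta rings, which carry the cutting sites. The 19S cap, made of a base with a ring of ATPases and of a lid that removes ubiquitin, unfolds substrates and feeds them in, while the activators PA28 and PA200 and the inhibitor PI31 bind the core in other ways. Proximal tubule cells of the kidney take up and break down large amounts of filtered protein, mainly in lysosomes.

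Agreement between arrays set how many samples each group was taken to hold. Over 7698 bright probes, arrays CR 1 and 3, CR 2 and 4, young 1 and 2, young 3 and 4, and all 4 AL arrays differed within each set about as little as repeat spots on an array. The robust SD per array from their log2 differences was 0.0605 to 0.0954, and it was 0.112 to 0.236 for the other pairs of a group. AL arrays 2 and 4, at 0.0865, lay just over the limit of 0.0842 set by repeat spots and were joined through the other AL arrays. Arrays that agreed this closely may share a kidney or an RNA, although the labels call them biological replicates, and they were averaged and counted as 1 sample. The comparisons therefore rest on 5 samples (2 CR, 1 AL, 2 young), with the fit in which each of the 12 arrays counts as a sample given beside it. The AL sample was assumed to vary like those of the other groups, and p-values measure only the spread between these samples. The share of probes above background was 72.5 to 74.8% on CR arrays, 71.5 to 73.7% on AL arrays and 64.2 to 69.9% on young arrays, and was lowest on young arrays 1 and 2 (64.2% and 65.5%). By the file headers the AL arrays and CR arrays 3 and 4 were of 1 slide series, and the young arrays and CR arrays 1 and 2 of another. The AL arrays were scanned apart from the others. Between AL and young the slides, the scan and the groups therefore cannot be told apart. Between CR and AL the scan and the groups cannot be told apart either, also within the slide series that they share. All 12 kidney markers chosen for the check, such as Lrp2, Umod and Nphs1, were tested. In whole kidney, fewer cells of a type and less RNA per cell cannot be told apart.

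Between aged AL and young kidneys, the inhibitor gene Psmf1 was lower on every AL array. The PA28 genes Psme1 and Psme2 were among 15 genes that were higher on every AL array. The alpha ring gene Psma6 (0.68, named here after its value was seen) was another of the 15. The largest positive differences were those of the core genes Psmb2, Psma1 and Psmb1, the base gene Psmc3 and the lid gene Psmd8. These came with a wide gap between the young samples themselves. Of 41 genes, 28 had a positive and 13 a negative difference (range -1.73 to 1.60, where 1 log2 unit is 2-fold), with a median of 0.14 against -0.05 over all 25389 probes fitted. In the 5-sample limma fit, 0 of the 41 passed an adjusted p of 0.05, where 0.114% of all probes passed. At an unadjusted p under 0.05 there were 2 of the 41 (Psmf1 and Psma6), against 4327 of all 25389 probes. With each array counted as a sample, 17 genes passed as higher and 4 as lower, against 20.9% and 27.1% of all probes, so the share of higher genes was above that background and the share of lower ones below it. All AL arrays lay above all young arrays for 15 genes and below them for 4, against 19.7% and 25.9% of all probes. The signs of the differences depend on the scaling between arrays, as given with the other scalings.

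**Figure D1:**
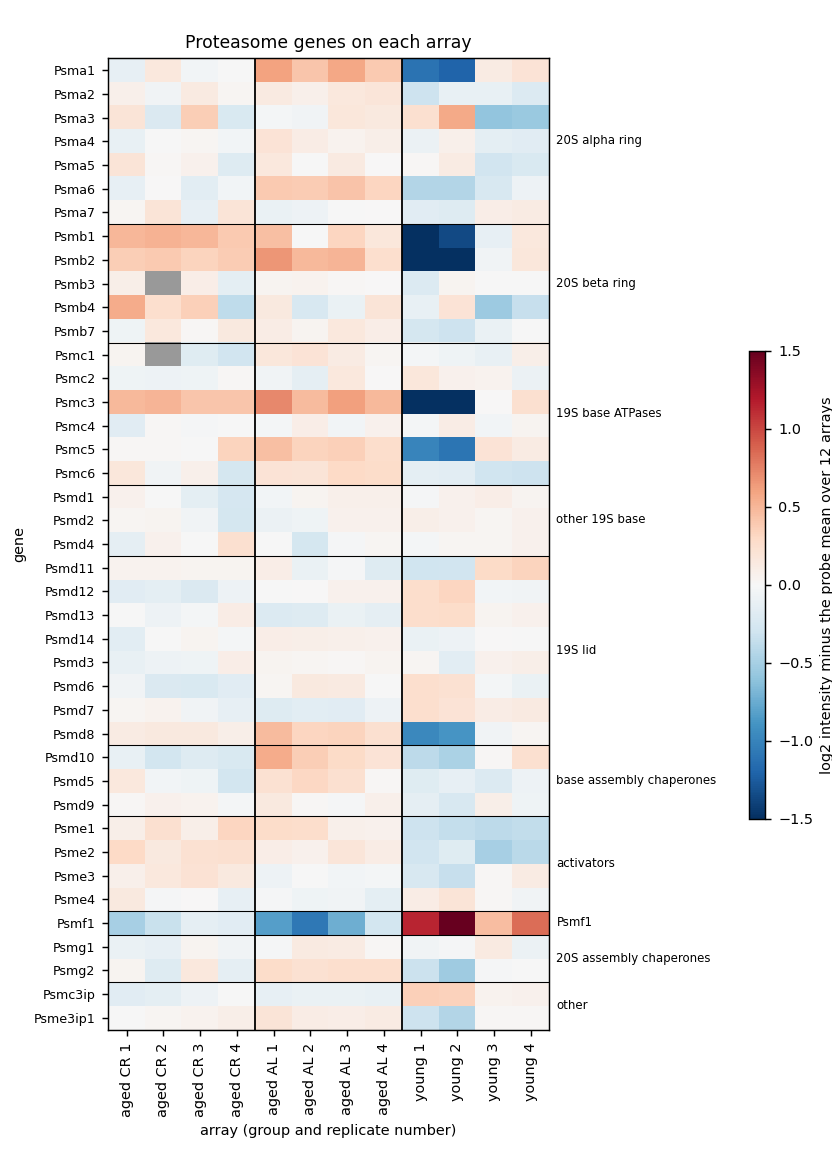
Log2 intensity of the 41 tested genes on each array minus the probe's mean over the 12 arrays, with genes in rows by role and arrays in columns by group. Grey cells are spots left out for their quality flag and the colours saturate at 1.5 either way. Young arrays 1 and 2 stand apart for Psmc3, Psmb2, Psmb1, Psma1, Psmc5 and Psmd8, and Psmf1 is high on the 4 young arrays.

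The alpha ring genes Psma1 to Psma7 had AL minus young differences between -0.01 and 0.99, positive in 6 of 7, and 4 of 7 passed over 12 arrays. Over all probes 20.9% passed as higher and 27.1% as lower, which is the background for this and the other counts by role below. Psma1, an alpha ring subunit, read 11.53, 11.34, 11.51 and 11.33 on AL arrays 1 to 4, against 9.82, 9.73, 11.05 and 11.13 on young arrays 1 to 4. The groups did not overlap, but young arrays 1 and 2 lay more than 1 unit below young arrays 3 and 4. The difference was 0.99 (SE 0.56, adjusted p = 0.422 over 5 samples and 0.0155 over 12 arrays), and it was 0.34 without young arrays 1 and 2.

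All 5 beta ring genes had positive differences (0.08 to 1.32), and 3 of 5 passed over 12 arrays. Psmb2, a beta subunit without a cutting site of its own, read 9.45, 9.28, 9.30 and 9.04 on AL arrays, against 7.24, 6.85, 8.74 and 8.96 on young arrays. Psmb1, likewise a beta subunit without a cutting site of its own, read 11.73, 11.27, 11.59 and 11.45 on AL arrays, against 9.76, 9.92, 11.15 and 11.43 on young arrays. Psmb2 did not overlap between the groups, whereas the highest young value of Psmb1 was above the lowest AL value. The differences were 1.32 for Psmb2 (SE 0.75, adjusted p = 0.42 over 5 samples and 0.0176 over 12 arrays) and 0.94 for Psmb1 (SE 0.61, adjusted p = 0.463 and 0.0322). Without young arrays 1 and 2 they were 0.42 for Psmb2 and 0.22 for Psmb1.

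The 6 ATPases of the base had differences from -0.05 to 1.60, positive in 5, and 3 of 6 passed over 12 arrays. Psmc3, one of the ATPases that unfold substrates, read 10.18, 9.94, 10.09 and 9.96 on AL arrays, against 7.40, 7.18, 9.48 and 9.71 on young arrays. Every AL array was above every young array, and the young arrays fell into a low and a high pair. Its difference of 1.60 (SE 0.94, adjusted p = 0.434 over 5 samples and 0.0203 over 12 arrays) was the highest of the 41 genes and was 0.45 without young arrays 1 and 2. The other base subunits, Psmd1, Psmd2 and the ubiquitin receptor Psmd4, had differences of -0.08 to -0.01, and 0 of 3 passed in either fit, with 0 at an unadjusted p under 0.05 over 5 samples.

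The 8 lid genes had differences of -0.33 to 0.81, 3 positive and 5 negative, with 1 higher and 2 lower over 12 arrays. Psmd8, a lid subunit, read 11.24, 11.09, 11.10 and 11.01 on AL arrays, against 9.80, 9.88, 10.71 and 10.79 on young arrays. Its difference was 0.81 (SE 0.41, adjusted p = 0.381 over 5 samples and 0.007 over 12 arrays) and 0.36 without young arrays 1 and 2. Psmd7, a lid subunit that pairs with the deubiquitinase Psmd14, read 11.49, 11.53, 11.53 and 11.62 on AL arrays, against 11.95, 11.90, 11.80 and 11.83 on young arrays. All of its AL values were below all young ones, by 0.33 on average (SE 0.20, adjusted p = 0.438 over 5 samples and 0.00197 over 12 arrays). Psmd13, another lid subunit, had a difference of -0.32 (SE 0.21, adjusted p = 0.469 and 0.00562), also without overlap, and -0.21 without young arrays 1 and 2.

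Of the 4 activator genes, 2 passed as higher over 12 arrays. Psme1 and Psme2 encode the PA28 alpha and beta chains, which cap the core and are induced by interferon-gamma. Psme1 read 13.60, 13.58, 13.40 and 13.38 on AL arrays, against 13.01, 12.96, 12.93 and 12.96 on young arrays. Psme2 read 13.08, 13.05, 13.17 and 13.09 on AL arrays, against 12.70, 12.80, 12.49 and 12.59 on young arrays. Neither gene overlapped between the groups, and the young samples lay close together, 0.04 apart for Psme1 and 0.21 apart for Psme2. The differences were 0.52 for Psme1 (SE 0.21, adjusted p = 0.302 over 5 samples and 3.1e-04 over 12 arrays) and 0.45 for Psme2 (SE 0.21, adjusted p = 0.355 and 6.8e-04). With array median scaling they were -0.07 and -0.12, so their direction is not settled by these arrays. Psme3, the PA28 gamma chain of the nucleus, differed by 0.07 and Psme4, the activator PA200, by -0.14, and both overlapped.

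Psmf1 encodes PI31, named for its inhibition of the 20S core in vitro. It read 5.16, 4.92, 5.26 and 5.72 on AL arrays, against 7.13, 7.58, 6.46 and 6.83 on young arrays. The lowest young value exceeded the highest AL value, and the probe was dim but above background on all 12 arrays. The difference was -1.73 (SE 0.34, 95% confidence interval -2.63 to -0.83), the lowest of the 41 genes, with an adjusted p of 0.138 over 5 samples (unadjusted p = 0.0047) and 1.2e-04 over 12 arrays. It was -1.38 without young arrays 1 and 2 and -2.09 without young arrays 3 and 4, and -1.68 with array median scaling. Psmf1 was measured by 1 probe.

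The base assembly chaperones Psmd5, Psmd9 and Psmd10 had differences of 0.14 to 0.51, and 2 of 3 passed over 12 arrays. The 2 tested chaperones of core assembly, Psmg1 and Psmg2, had differences of 0.07 and 0.47, and 1 of 2 passed over 12 arrays. Of the genes that match by symbol alone, Psmc3ip, which acts in meiotic recombination, had a difference of -0.32 (SE 0.23, adjusted p = 0.496 over 5 samples and 0.0103 over 12 arrays), and -0.17 without young arrays 1 and 2.

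**Figure D2:**
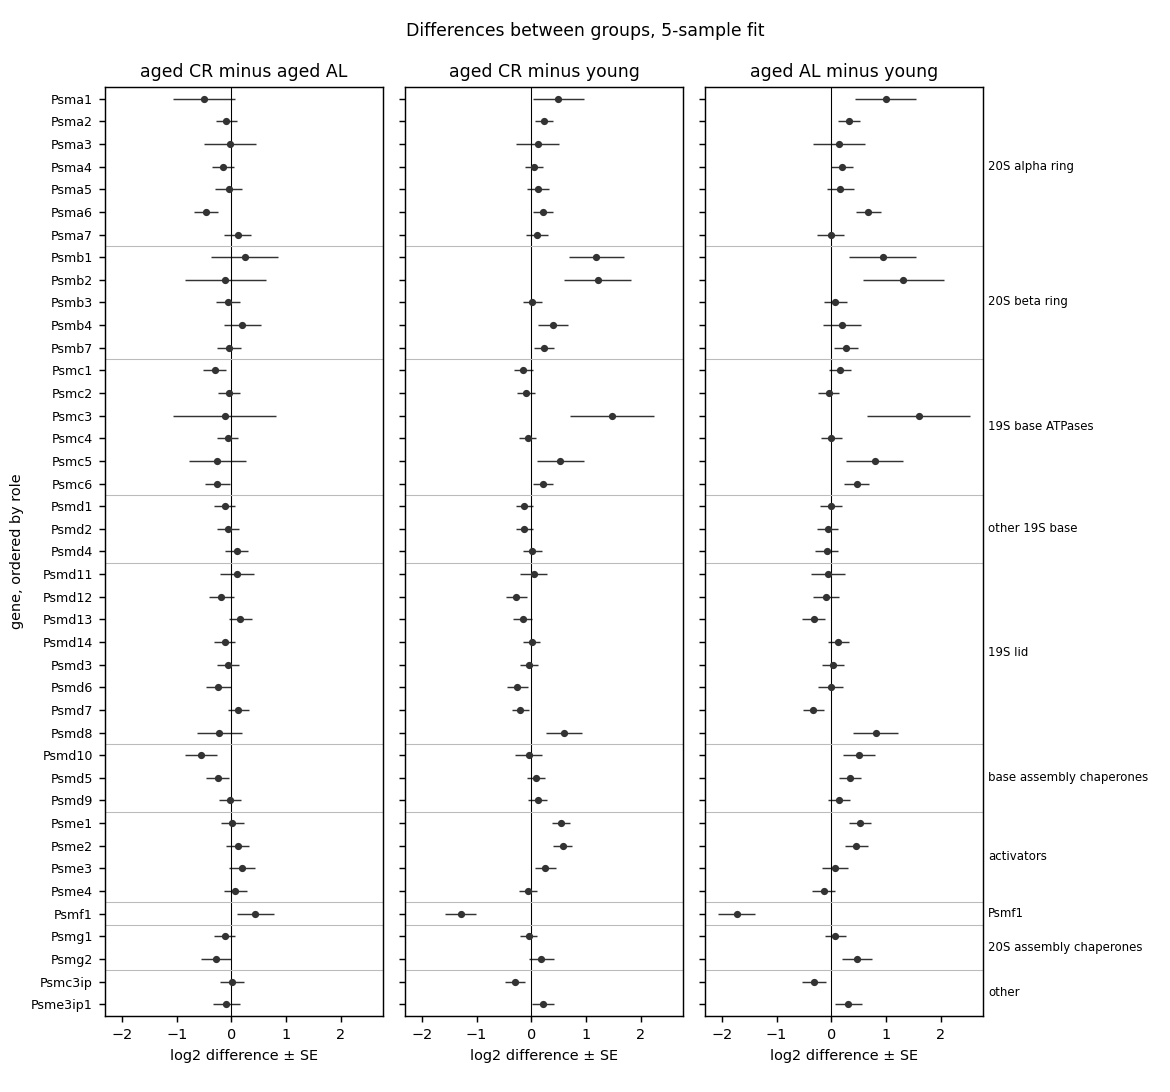
Log2 differences between groups with their SE from the 5-sample fit (x axis), for the 41 tested genes by role (y axis), in 3 panels with aged CR minus aged AL, aged CR minus young and aged AL minus young. Psmf1 lies at -1.29 in CR minus young and -1.73 in AL minus young, and the genes with the largest positive values, Psmc3 and Psmb2, have the widest SE.

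The promoters of the genes with the highest AL minus young differences, Psmc3 and Psmb2, and of those with the lowest, Psmf1 and Psmd7, are shown to set the letters of both ends side by side. Each runs from 250 bases before to 50 after the start of the gene, in the direction of the gene, as RefSeq gives it for GRCr8. Capitals mark every CCAAT and TGANNNNGC on either strand. The first, a box bound by NF-Y, was searched with the second, a loose core of the antioxidant response element through which NRF1 and NRF2 act, of which TGACNNNGC is a stricter subset.
Psmc3: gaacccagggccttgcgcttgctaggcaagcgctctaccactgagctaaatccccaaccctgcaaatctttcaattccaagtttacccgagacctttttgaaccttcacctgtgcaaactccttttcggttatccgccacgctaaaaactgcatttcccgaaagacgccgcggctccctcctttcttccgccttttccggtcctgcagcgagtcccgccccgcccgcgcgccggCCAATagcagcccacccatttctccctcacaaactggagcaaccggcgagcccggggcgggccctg
Psmb2: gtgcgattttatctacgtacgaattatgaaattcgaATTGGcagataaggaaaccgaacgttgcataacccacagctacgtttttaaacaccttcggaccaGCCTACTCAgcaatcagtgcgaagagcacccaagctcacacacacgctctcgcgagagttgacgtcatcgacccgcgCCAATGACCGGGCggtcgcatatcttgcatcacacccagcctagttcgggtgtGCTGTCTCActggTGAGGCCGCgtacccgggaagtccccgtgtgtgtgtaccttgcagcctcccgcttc
Psmf1: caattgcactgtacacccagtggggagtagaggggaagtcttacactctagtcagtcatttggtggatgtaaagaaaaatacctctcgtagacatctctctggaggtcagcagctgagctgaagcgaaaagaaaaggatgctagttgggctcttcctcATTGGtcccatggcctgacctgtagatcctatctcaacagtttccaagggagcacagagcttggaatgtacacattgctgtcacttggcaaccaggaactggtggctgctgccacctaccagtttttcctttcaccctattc
Psmd7: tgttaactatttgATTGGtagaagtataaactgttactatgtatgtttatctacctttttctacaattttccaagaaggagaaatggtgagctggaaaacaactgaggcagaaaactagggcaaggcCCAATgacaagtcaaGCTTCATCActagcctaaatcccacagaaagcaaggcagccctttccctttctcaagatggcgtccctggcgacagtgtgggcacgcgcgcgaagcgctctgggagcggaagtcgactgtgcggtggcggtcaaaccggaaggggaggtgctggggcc

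The Psmc3 promoter lies at chr3:97487393-97487692 on the plus strand, that of Psmb2 at chr5:144254808-144255107 on the plus strand, that of Psmf1 at chr3:160720866-160721165 on the minus strand and that of Psmd7 at chr19:52411267-52411566 on the minus strand. CCAAT was present in all 4, once in Psmc3 and Psmf1 and at 2 places in Psmb2 and Psmd7. TGANNNNGC was found at 4 places in Psmb2, 1 of them also TGACNNNGC, at 1 place in Psmd7, and at 0 in the windows of Psmc3 and Psmf1. The ends of the list therefore did not separate by these letters.

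A promoter was matched for 38 of the 42 genes. CCAAT was in 20 of 38 (52.6%, exact 95% interval 35.8 to 69.0%), against 37.7% of the first promoters of all 27457 genes in the table. TGANNNNGC was in 20 of 38 (52.6%, 35.8 to 69.0%) against 40.4%, and TGACNNNGC in 6 of 38 (15.8%, 6.02 to 31.3%) against 12.2%. Each interval holds the share of all promoters.

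Between aged CR and aged AL kidneys, differences were small and mostly negative, with the lowest at the base chaperone Psmd10 and the alpha ring genes Psma1 and Psma6. Of 41 genes, 13 had a positive and 28 a negative difference (-0.56 to 0.44), with a median of -0.06 against 0.01 over all probes. In the 5-sample limma fit 0 genes passed, where 0% of all probes passed. At an unadjusted p under 0.05 there were 0 of the 41, against 1206 of all 25389 probes. Over 12 arrays, 0 genes passed as higher and 2 as lower (Psma6 and Psmd10), against 7.40% and 5.98% of all probes. All CR arrays lay above all AL arrays for 2 genes and below them for 11, against 16.1% and 16.4% of all probes.

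Psmd10, known as gankyrin, helps to assemble the ATPase ring. It read 7.89, 7.72, 7.81 and 7.77 on CR arrays, against 8.56, 8.37, 8.29 and 8.20 on AL arrays, and 7.61, 7.53, 8.01 and 8.24 on young arrays. The CR arrays lay within the range of the young ones and below all AL arrays. CR minus AL was -0.56 (SE 0.29, adjusted p = 1 over 5 samples and 0.0273 over 12 arrays). It was -0.57 within the slide series that holds both groups, where the scan still separates them. A second probe of Psmd10 gave -0.51 (adjusted p = 0.00487 over 12 arrays), again with all CR arrays below all AL arrays.

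Psma6, an alpha ring subunit, read 12.09, 12.22, 12.06 and 12.18 on CR arrays, against 12.62, 12.60, 12.65 and 12.54 on AL arrays, and 11.78, 11.78, 11.97 and 12.14 on young arrays. The AL arrays stood above those of both other groups, while CR and young overlapped. CR minus AL was -0.46 (SE 0.22, adjusted p = 1 over 5 samples and 0.00509 over 12 arrays) and -0.48 within the slide series, and AL minus young was 0.68 (SE 0.22, adjusted p = 0.253 and 9.7e-05), a value shown after it was seen. These comparisons share the AL arrays.

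Psma1 had a CR minus AL difference of -0.50 (SE 0.56), the ATPase Psmc1 one of -0.31 (SE 0.21) and the core chaperone Psmg2 one of -0.29 (SE 0.27). For Psmc1 the CR mean leaves out array 2, whose spot carried a quality flag. At the other end Psmf1 differed by 0.44 (SE 0.34), Psmb1 by 0.24 (SE 0.61), the beta subunit Psmb4 by 0.20 (SE 0.34), Psme3 by 0.19 (SE 0.24) and Psmd13 by 0.16 (SE 0.21). None of these 8 passed in either fit, although all CR arrays lay above all AL arrays for Psme3 and Psmd13 and below them for Psma1 and Psmg2. Among the other activators, Psme1 differed by 0.02, Psme2 by 0.12 and Psme4 by 0.07, and for Psme1, Psme2, Psme4 and Psmd13 array median scaling gave a negative sign. Psmf1 read 5.49, 5.65, 5.86 and 5.82 on CR arrays, which overlapped with its AL values.

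Between aged CR and young kidneys, the pattern of AL against young recurred at its ends, with Psmf1 lowest and Psmc3, Psmb2 and Psmb1 highest, but the 2 comparisons share the young arrays. Of 41 genes, 26 had a positive and 15 a negative difference (-1.29 to 1.48), with a median of 0.09 against -0.02 over all probes. In the 5-sample limma fit 0 genes passed, where 0.910% of all probes passed. At an unadjusted p under 0.05 there were 3 of the 41, against 5929 of all 25389 probes. Over 12 arrays, 8 passed as higher and 5 as lower, against 19.7% and 24.6% of all probes. All CR arrays lay above all young arrays for 7 genes and below them for 4, against 17.8% and 23.0% of all probes, shares near or below that background.

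Psmf1 had a CR minus young difference of -1.29 (SE 0.28, 95% confidence interval -2.03 to -0.56, adjusted p = 0.102 over 5 samples and 9.4e-04 over 12 arrays). Within the slide series that holds both groups it was -1.43, and the highest CR value was below the lowest young value. It was -0.94 without young arrays 1 and 2.

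Psme1 read 13.41, 13.56, 13.41 and 13.64 on CR arrays and Psme2 read 13.29, 13.14, 13.21 and 13.23, each above all young arrays. The differences from young were 0.54 for Psme1 (SE 0.17, adjusted p = 0.164 over 5 samples and 2.6e-04 over 12 arrays) and 0.57 for Psme2 (SE 0.17, adjusted p = 0.157 and 1.5e-04). With array median scaling they were -0.29 and -0.19. Psme3 differed by 0.26 and Psme4 by -0.06, both with overlap.

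Core, base and lid genes that were low on young arrays 1 and 2 had the highest differences here too. Psmc3 differed by 1.48 (SE 0.77), Psmb2 by 1.21 (SE 0.61), Psmb1 by 1.19 (SE 0.50) and Psmd8 by 0.60 (SE 0.34). Without young arrays 1 and 2 these were 0.33, 0.31, 0.46 and 0.14. At the lower end, after Psmf1, stood Psmc3ip at -0.31, Psmd12 at -0.27, Psmd6 at -0.25 and Psmd7 at -0.20. The last 3 encode lid subunits, and each of the 4 passed over 12 arrays but not over 5 samples. Without young arrays 1 and 2 they were smaller as well, at -0.16 for Psmc3ip, -0.10 for Psmd12, -0.10 for Psmd6 and -0.15 for Psmd7.

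**Figure D3:**
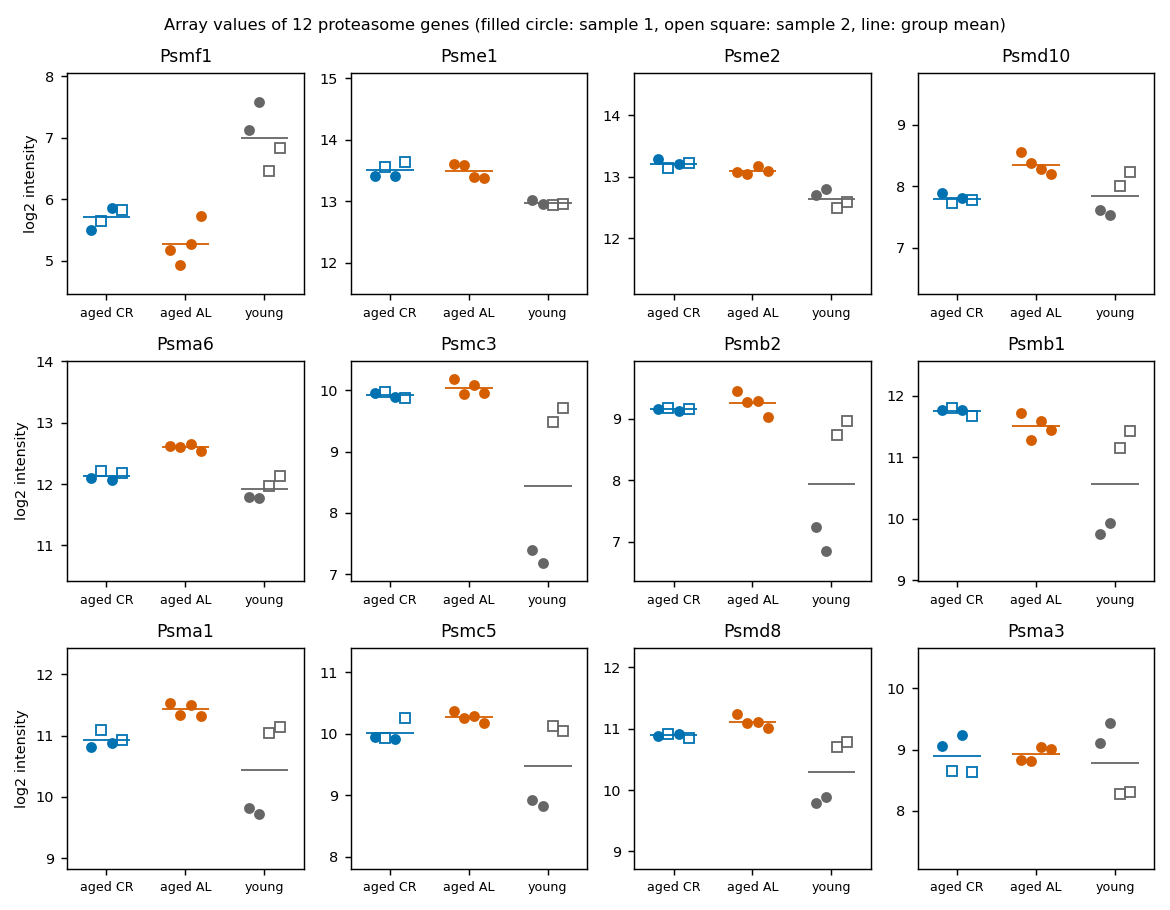
Log2 intensity of 12 genes on each array (y axis) by group (x axis), with filled circles for sample 1, open squares for sample 2 and a line for the mean over samples. Every panel spans the same number of log2 units. Psmf1, Psme1, Psme2, Psmc3, Psmb2 and Psmd8 separate aged from young arrays. In Psmc3, Psmb2, Psmb1, Psma1, Psmc5 and Psmd8 young sample 1 lies below young sample 2, with Psma3 the other way round.

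The spread inside the young group was as large as the differences with age for several genes. Young sample 1 (arrays 1 and 2) minus young sample 2 (arrays 3 and 4) was -2.30 for Psmc3, -1.80 for Psmb2, -1.45 for Psmb1, -1.32 for Psma1 and -1.21 for the ATPase gene Psmc5. These 5 of 41 genes differed by 1 or more, against 10.0% of all probes, a share near that background. Psmd8 followed at -0.91, and Psma3, an alpha ring gene, at 0.98 and Psmf1 at 0.71 went the other way. Psmc5 and Psma3 were singled out after their values were seen. Psmc5 read 8.93 and 8.82 on young arrays 1 and 2, against 10.13 and 10.04 on young arrays 3 and 4. The CR samples differed by 1 or more in 0 of 41 genes, against 0.315% of all probes.

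Other features moved with the young samples. Arrays of young sample 1 had the fewest probes above background, as given above, and of 12 kidney markers 9 were lower and 3 higher in young sample 1 than in young sample 2 (median difference -0.48). Cubn and Aqp2 differed by -1.44 and -1.85, while the others differed by less than 1, with -0.13 for Lrp2. The part of these in the gap among proteasome genes was not tested. Without young sample 1, 1 gene (Psmf1) passed between AL and young and 3 genes (Psmf1, Psme1 and Psme2) between CR and young, where 17.7% and 22.2% of all probes passed in limma fits over the 4 samples left. Without young sample 2, 11 and 12 genes passed, where 43.1% and 49.3% of all probes did. In these fits AL and young are 1 sample each and the spread comes from the CR samples alone, so their calls are no sign of stability.

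**Figure D4:**
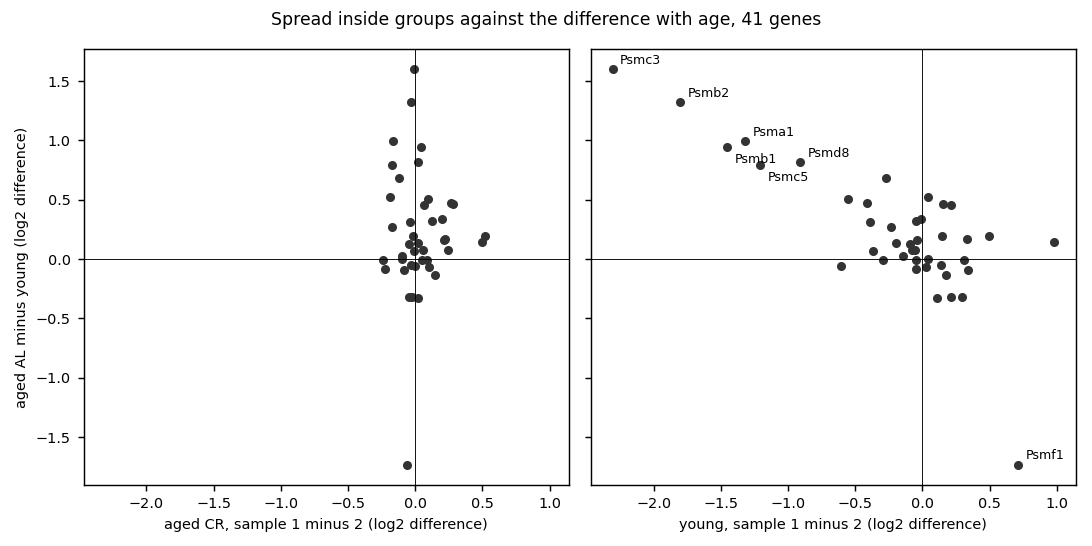
AL minus young difference (y axis, log2) of the 41 genes against the difference between the samples inside a group (x axis, log2), with CR samples on the left and young samples on the right. The young arrays enter both axes of the right panel. CR differences stay within 1 unit, while Psmc3 reaches -2.30 between young samples.

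The direction of the whole gene group against young kidneys depended on how arrays were scaled to each other. The median of CR minus AL was negative under each scaling. Quantile normalisation, used above, makes all arrays share 1 distribution, while array median scaling divides by the array's median. With median scaling, AL minus young was positive for 12 and negative for 29 of 41 genes, with a median of -0.37 against -0.22 over all probes. For CR minus AL it was positive for 5 and negative for 36 (median -0.22 against -0.06), and for CR minus young positive for 7 and negative for 34 (median -0.46 against -0.25). The authors' value table, which is scaled by the array median, gave the same counts and medians of -0.36, -0.21 and -0.45. Relative to all probes, the median of the proteasome genes was 0.19 higher in AL than in young with quantile normalisation and differed by -0.15 with median scaling.

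Relative to the median of the 41 genes, the activators and the highest and lowest members named per comparison kept their side under both scalings. Keeping a side was therefore not particular to Psmf1, Psme1 and Psme2. Psmf1 lay -1.88 from that median in AL minus young with quantile normalisation and -1.31 with median scaling. Psmc3 lay 1.46 and 1.86 above it, and Psmd7 lay -0.47 and -0.45 from it. Psme1 lay 0.38 and 0.30 above it, and Psme2 0.31 and 0.24 above it. In CR minus young Psme1 lay 0.45 and 0.18 above it, and Psme2 0.48 and 0.27 above it. Psme1 and Psme2 stood above the median of the 41 genes in aged against young kidneys under both scalings, whichever sign the difference itself had. Psme3 lay -0.073 and -0.034 from it in AL minus young, but 0.17 and 0.073 above it in CR minus young.

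**Figure D5:**
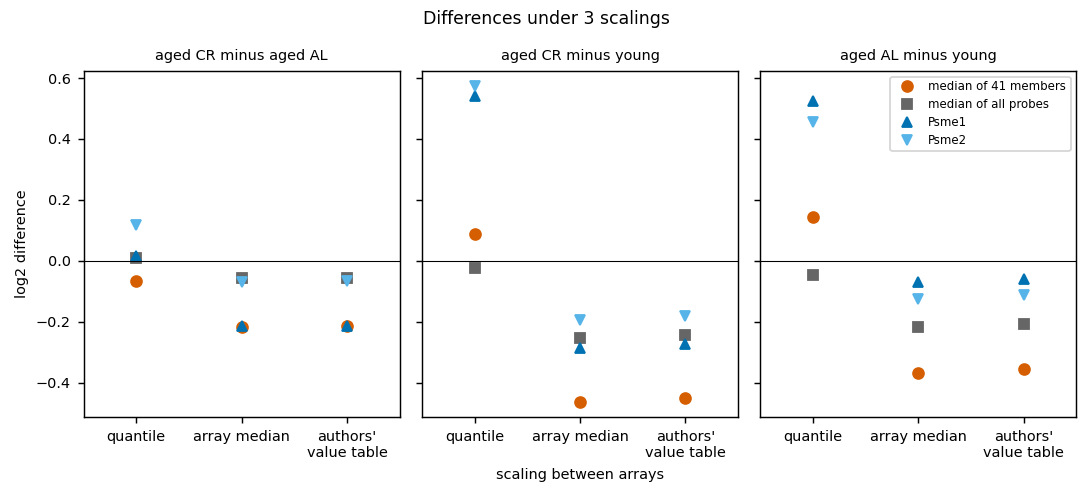
Log2 differences (y axis) under 3 scalings between arrays (x axis) for the median of the 41 genes, the median of all probes, Psme1 and Psme2, in 3 panels by comparison. Between aged and young kidneys the median of the 41 genes changes sign, and Psme1 and Psme2 do so too but stay above that median.

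Where a gene had other probes they did not always go with the one used. Psmb2's second probe read 8.43, 8.15, 8.34 and 8.20 on AL arrays, against 6.57, 6.79, 7.83 and 7.97 on young arrays, with the same low pair as the first. Psmd1's second probe differed by 0.80 between AL and young (adjusted p = 0.0299 over 12 arrays), against -0.01 for the first, and its difference between young samples 1 and 2 was -1.16. Psme3's second probe differed by -0.62 between CR and AL (all CR arrays below all AL arrays, adjusted p = 8.8e-05 over 12 arrays and 0.92 over 5 samples). The first differed by 0.19 with all CR arrays above all AL arrays, so no direction can be given for Psme3. Between AL and young the second probe differed by 0.31, with all AL arrays above all young arrays, against 0.07 with overlap for the first. RefSeq names 44 pseudogenes of 18 of the 42 genes, to which such probes might also hybridise.

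Other genes of the pathway were described from a list of proteasome cofactors, ubiquitin shuttles and ubiquitin-activating enzymes, of which 22 were tested. In the 5-sample limma fit 0 of 22 passed in any comparison (0 at an unadjusted p under 0.05), and over 12 arrays 6 were higher and 3 lower between AL and young, 0 and 1 between CR and AL, and 3 and 2 between CR and young. Over all probes the shares higher and lower were 20.9% and 27.1%, 7.40% and 5.98%, and 19.7% and 24.6%. The list's share of higher genes between AL and young was above that background, and its other shares lay near or below it. The median AL minus young difference of the list was 0.07. Ubqln1, a shuttle that carries ubiquitinated proteins to the proteasome, read 13.02, 12.91, 12.96 and 13.00 on AL arrays, against 12.52, 12.62, 12.59 and 12.61 on young arrays. The AL arrays lay above all young ones. It differed by 0.39 between AL and young and by -0.27 between CR and AL (adjusted p = 0.0138 over 12 arrays), and was the 1 gene of the list that passed there. Rad23b, another shuttle, differed by 0.50 between AL and young and by 0.47 between CR and young, but by 0.16 and 0.12 from young arrays 3 and 4 alone. Uba6, an enzyme that activates ubiquitin and FAT10, differed by -0.42 between AL and young and by -0.48 between CR and young, and by -0.27 and -0.33 from young arrays 3 and 4 alone.

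The immunoproteasome genes Psmb8, Psmb9 and Psmb10, whose products replace the cutting beta subunits under interferon-gamma, had AL minus young differences of 0.82, 1.12 and 0.74 and CR minus young differences of 1.06, 1.48 and 0.91, with every aged array above every young array. Psmb9 in CR against young was the 1 gene of the 3 that passed the 5-sample fit (adjusted p = 0.0484). Of all probes, 19.7% were higher on every AL array than on any young array, and 17.8% on every CR array. Of 13 leukocyte markers, among them Ptprc, Cd68 and Cd3e, 12 were higher on every AL array than on any young array, with a median difference of 2.22. Likewise 12 were higher on every CR array than on any young array (median 1.80). Itgam was the exception, lower on every CR array and overlapping between AL and young. In the 5-sample fit 0 passed between AL and young (11 at an unadjusted p under 0.05) and 6 between CR and young. Their summed intensity was 55942 to 61921 on AL arrays and 28153 to 32188 on young arrays, and 19719 to 57214 on CR arrays, where the lowest array lacks the bright Cd74 spot for its flag. Leukocytes express PA28 and immunoproteasome genes strongly, and the part of these cells in the differences of Psme1 and Psme2 was not tested. Of the other cell types looked for, 3 of 5 skeletal muscle markers and 3 of 4 adipocyte markers were tested, and summed adipocyte marker intensity was 1668 to 1793 on CR arrays, 1883 to 2128 on AL arrays and 4576 to 6545 on young arrays. The adipocyte markers did not move together, with AL minus young differences of -1.57 for Cidec, -0.01 for Adipoq and 0.53 for Lep. Of the muscle markers, Acta1 differed by 0.74, Tnnt3 by 0.76 and Ckm by -0.07 between AL and young.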

How the data were processed

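Background-subtracted spot intensity was taken from the deposited array reports, written by CodeLink Expression Analysis per the file headers. The authors' value table holds a deposited ratio, the median-scaled intensity divided by a constant per probe, whose scale is known only from its values. It was used as an alternative after taking log2. Flagged spots were set missing, the 33849 gene probes were quantile normalised, values under 7.69 (the negative-control median) were raised to it, and log2 was taken. Of these, 25398 probes were above background on at least 4 arrays and had at least 2 values per group. Close arrays were averaged (5 samples, of which a probe needs a value in each), and limma 3.58.1 in R 4.3.3 was fitted over all probes and groups with Benjamini-Hochberg adjustment (threshold 0.05). The plain fit, over 5 samples and with each array counted as a sample, was tested on simulated data. The fits with a block, with other scalings or with gene means were not tested in that way. The members, lists and tests were chosen with earlier results of these data known. Named with values are, per comparison, the 5 highest and 5 lowest members and the activators. A probe with 2 symbols (Psma3 and a related gene) was left out. Same-numbered replicates did not deviate together (correlations -0.24 to 0.18), so numbers were not taken as pairs. The number of arrays limits the precision.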

Additional observations from a re-analysis of the deposited data

How the results depend on the processing

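Psmf1 was lower than in young kidneys under every alternative tried, from -2.09 to -1.38 in AL and from -1.65 to -0.94 in CR when arrays or samples were left out. Counting each of the 12 arrays as a sample gave 21, 2 and 13 members and 12204, 3397 and 11256 probes that passed (AL minus young, CR minus AL and CR minus young, the order kept here), against 0, 0 and 0 members and 29, 0 and 231 probes over 5 samples. With the replicate number as a block over 12 arrays these were 20, 1 and 8 members and 11396, 2647 and 10560 probes. The numbers share no source in the labels, and 2 of 12 arrays correlated best with their own number. Slide series as a random block gave 26, 2 and 15 members and 18575, 4307 and 12488 probes. The correlation within series in that fit was -0.153. A negative value lowers the error between groups on different series, so these counts do not correct for the slides. As a fixed block, chosen after seeing the data, slide series gave 5, 1 and 5 members and 3901, 1479 and 7895 probes. Scan as a random block could not be fitted. Over 5 samples, the probes that passed between AL and young numbered 66 with array median scaling, 1 with a floor of 1, 1 with no filter, 189 above background on all 12 arrays, 82 with gene means and 11 in the authors' value table. Between CR and young they numbered 139 with that floor, 45 with no filter, 769 above background on all 12 arrays, 369 with gene means and 118 in the authors' table. Within the slide series that holds CR and AL, 126 passed.

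With array median scaling the medians of the members were -0.37, -0.22 and -0.46, and in the authors' table -0.36, -0.21 and -0.45. These scalings also turned the sign, median scaling and authors' table in turn, of Psme1 (-0.071 and -0.059), Psme2 (-0.12 and -0.11) and Psme3 (-0.40 and -0.39) in AL minus young. In CR minus AL they turned Psmd13 (-0.011 and -0.0087), Psme1 (-0.22 and -0.21), Psme2 (-0.070 and -0.068) and Psme4 (-0.094 and -0.092), and in CR minus young Psme2 (-0.19 and -0.18), Psme1 (-0.29 and -0.27) and Psme3 (-0.39 and -0.38). Means over a gene's probes turned Psme4 to 0.027 in AL minus young, Psme3 to -0.22 and Psme4 to -0.025 in CR minus AL, and Psme3 to -0.028 and Psme4 to 0.0029 in CR minus young. The slide series as a fixed block, and the comparison within it, gave -0.0075 for Psmb4 in CR minus AL and 0.00042 for Psme4 in CR minus young. The cause of these changes was not tested.

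Without any 1 array, 0 members passed in each comparison, and 1 to 44, 0 to 0 and 113 to 296 probes. Psme1 was then between -0.020 and 0.051 in CR minus AL. Without young arrays 1 and 2, 1, 0 and 3 members and 4485, 1630 and 5633 probes passed, and the member median of CR minus young was -0.022. Without young arrays 3 and 4, 11, 0 and 12 members and 10954, 1626 and 12510 probes passed. In both fits the spread comes from the CR samples alone. Without either CR sample, 0 members and 0 probes passed in each comparison. Signs turned in CR minus AL for Psmb4 (-0.060 without CR arrays 1 and 3) and Psme1 (-0.079 without CR arrays 2 and 4). They turned for Psme3 in AL minus young (-0.11 without young arrays 1 and 2) and for Psme4 in CR minus young (0.011 without CR arrays 2 and 4, 0.026 without young arrays 1 and 2). With 5 samples and 2 residual degrees of freedom, only differences large against the spread between samples could pass.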
